A study of Homo sapiens with 54 samples.

Results

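The transcriptional effect of adding estradiol (E2) to enzalutamide (Enza) was measured in C4-2 prostate cancer cells. The members are the 6 libraries that the titles and treatment labels name for that contrast in C4-2, 3 with E2 + Enza and 3 with Enza, out of 54 libraries in the whole study, and every gene expressed in C4-2 was described. The study sequenced total RNA from 3 prostate cancer lines, C4-2, LNCaP and 22Rv1, each under 6 treatments with 3 libraries per treatment. The E2 + Enza cells received 100 nM E2 together with 1 µM Enza, and the Enza cells 1 µM Enza. The other C4-2 groups used here received 100 nM E2 or the ethanol vehicle, and the OSU-ERb-12 groups entered only the estimate of the spread. All cells were treated for 12 h in RPMI medium with fetal bovine serum. The labels call the genotype WT, describe the libraries of a group as biological replicates and do not say whether they came from separate passages.

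Enzalutamide is an antiandrogen drug that blocks the transcriptional response of prostate cells to androgens, the steroids on which most prostate cancers depend. Estradiol is the main natural estrogen and acts through the estrogen receptors ERα and ERβ, which are transcription factors. C4-2 was derived from LNCaP tumours grown in castrated mice, and its growth depends less on androgens than that of LNCaP, while 22Rv1 comes from another xenograft. Genes such as KLK3, which encodes prostate-specific antigen, and TMPRSS2, a membrane serine protease, are classically induced by androgens, whereas WNT5A and SOX9 belong to a smaller set that androgens keep low.

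The 6 libraries held 44307877 to 51658164 reads in genes, so that a read was worth 0.0204 to 0.0234 CPM (reads per library scaled to 1000000), within the range of 32819568 to 52417050 reads over all 54. They correlated with the other C4-2 libraries at r = 0.998 to 0.999 across genes, and less with LNCaP (0.964 to 0.965) and 22Rv1 (0.844 to 0.845). All 9 luminal prostate markers were expressed, with a summed level of 4980 to 5340 CPM with E2 + Enza and 3590 to 3660 CPM with Enza. Markers of other cell types were lower. KRT14, the only one of the basal prostate markers of this check that was analysed, reached 0.208 CPM with E2 + Enza and was at 0 with Enza. Of the fibroblast markers, LUM was at 0 in all 6 libraries. COL1A1 lay at 8.37 to 9.94 CPM with E2 + Enza and 8.49 to 10.6 CPM with Enza. The summed leukocyte markers lay at 7.61 to 9.42 CPM with E2 + Enza and 8.5 to 10.5 CPM with Enza. The endothelial marker VWF had 3.91 to 4.56 CPM with E2 + Enza and 2.62 to 3.8 CPM with Enza. The neuroendocrine marker SYP had 1.71 to 2.5 and 1.84 to 2.07 CPM. Small noncoding RNA took 15.3 to 16.1% of reads with E2 + Enza and 13.1 to 15.9% with Enza, where Enza library 2 was lowest, and mitochondrially encoded mRNA took 3.25 to 3.65% with E2 + Enza and 3.51 to 3.95% with Enza. The part of these shares in the results was not tested. Outside the 6, C4-2 vehicle library 1 carries the cell line tag of 22Rv1 against its title, and C4-2 E2 library 3 had the highest share of mitochondrial ribosomal RNA of the C4-2 libraries (0.149% of reads). Counts of calls that use them are therefore also given without both.

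Estradiol added to enzalutamide raised 33 of 47 androgen-induced genes tested, SLC45A3 the most, and lowered 9 of 16 androgen-repressed genes, WNT5A the most. Of 14027 genes tested, 1035 (7.38%) were called at an adjusted p under 0.05 by limma: 622 (4.43%) were higher with E2 + Enza than with Enza and 413 (2.94%) were lower. Most changes were small, as 793 of the 1035 were below 0.5 on the log2 scale, 196 lay between 0.5 and 1, 41 between 1 and 2, and 5 at or above 2. At 2-fold or more, 37 genes were higher and 9 were lower. The median log2 fold change over all genes tested was 0.002. Of the called genes, 598 higher and 391 lower were protein coding, and 12 higher and 10 lower were long noncoding RNAs. Scaled to total reads in place of the authors' effective library sizes, 551 genes were higher and 653 lower, so 45.8% of the calls were increases, against 60.1% in the main scaling. In a bulk culture, a change in the share of cells that express a gene and a change in RNA per cell cannot be told apart.

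**Figure D1:**
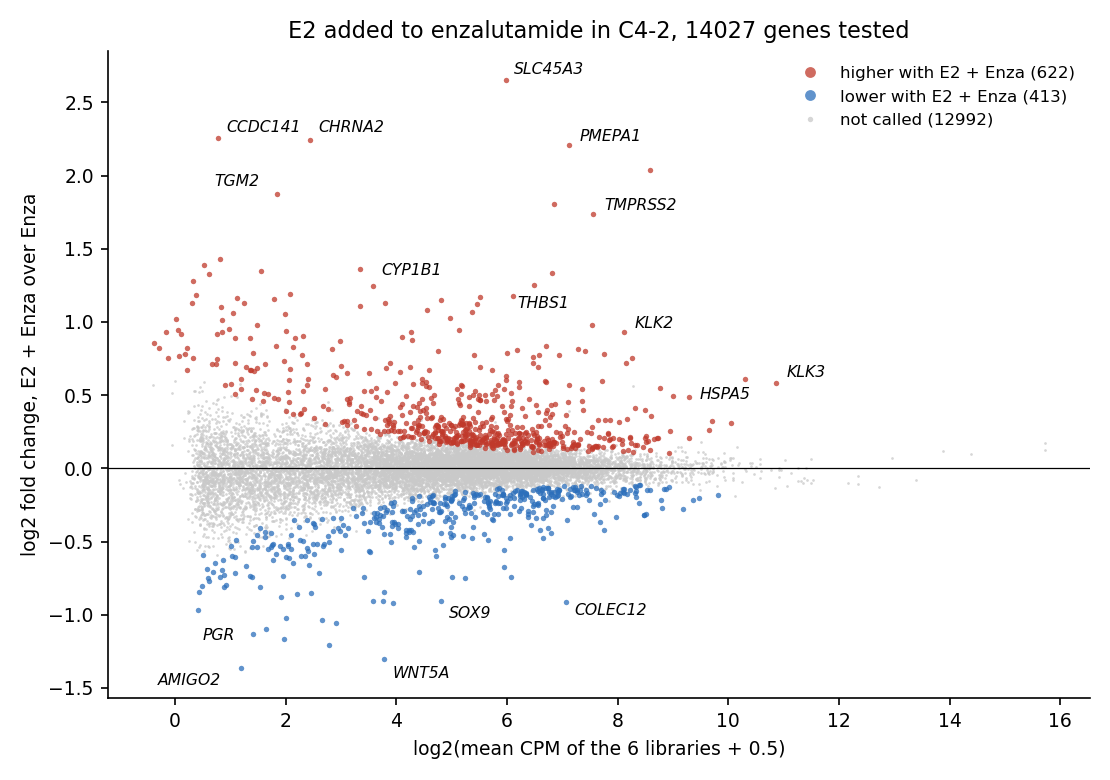
Each point is a gene, with its mean level over the 6 libraries on the horizontal axis (log2 of CPM + 0.5) and its log2 fold change, E2 + Enza over Enza, on the vertical axis; red points were called higher (622) and blue points lower (413). SLC45A3 stands highest at 2.65 and AMIGO2 lowest at -1.37, and the increases reach further from 0 than the decreases.

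SLC45A3, which encodes the prostate membrane transporter prostein, changed most. Its level was 115, 98.8 and 112 CPM with E2 + Enza, against 17.4, 16.6 and 16.4 CPM with Enza. No library of the E2 + Enza group came near any Enza library, and the fold change was 6.28 (log2 2.65, SE 0.06, adjusted p = 2.56e-21). PMEPA1, an androgen-induced membrane protein that restrains TGF-β signalling, had 239, 211 and 239 CPM with E2 + Enza and 49.6, 48.5 and 49.6 CPM with Enza (log2 fold change 2.21, SE 0.04, adjusted p = 3.66e-22). TMPRSS2 had 281, 285 and 304 CPM with E2 + Enza and 87.8, 90.2 and 82.3 CPM with Enza (1.74, SE 0.05, adjusted p = 7.47e-20). In each of these genes the groups were separated by more than the whole range within either group. All of them are among the largest rises, whose selection required groups without overlap.

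The kallikreins rose less. KLK3 had 2192, 2199 and 2294 CPM with E2 + Enza, against 1443, 1529 and 1489 CPM with Enza, a fold change of 1.5 (log2 0.58, SE 0.05, adjusted p = 9.63e-10). KLK2, which encodes another prostate kallikrein, had 356, 363 and 374 CPM with E2 + Enza and 179, 198 and 195 CPM with Enza (0.93, SE 0.04, adjusted p = 7.78e-14). KLK4, a further member of the cluster, differed by 0.34 (SE 0.04, adjusted p = 1.1e-06), with 69.2, 71 and 70 CPM with E2 + Enza and 56.2, 54.7 and 55.4 CPM with Enza. FKBP5, a co-chaperone of steroid receptors, had 276, 254 and 284 CPM with E2 + Enza and 166, 155 and 151 CPM with Enza (0.78, SE 0.05, adjusted p = 8.07e-12). None of the 4 overlapped between the groups, and 12% of all tested genes were separated in that direction.

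The promoters of 3 of these genes are shown because they hold the half-site AGAACA, which the glucocorticoid receptor and its close relatives bind as part of a longer element. The sequences are RefSeq promoters of GRCh38.p14, 250 bases before to 50 after the start, read 5′ to 3′ on the gene's strand; KLK3 lies at chr19:50854665-50854964, plus strand, PMEPA1 at chr20:57711423-57711722, minus strand and FKBP5 at chr6:35728534-35728833, minus strand. Capitals mark AGAACA.
KLK3: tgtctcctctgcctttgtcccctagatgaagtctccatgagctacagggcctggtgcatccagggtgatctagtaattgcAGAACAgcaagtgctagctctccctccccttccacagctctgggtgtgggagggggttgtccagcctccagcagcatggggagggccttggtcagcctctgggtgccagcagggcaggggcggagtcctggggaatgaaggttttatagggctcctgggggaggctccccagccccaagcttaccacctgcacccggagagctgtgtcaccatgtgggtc
PMEPA1: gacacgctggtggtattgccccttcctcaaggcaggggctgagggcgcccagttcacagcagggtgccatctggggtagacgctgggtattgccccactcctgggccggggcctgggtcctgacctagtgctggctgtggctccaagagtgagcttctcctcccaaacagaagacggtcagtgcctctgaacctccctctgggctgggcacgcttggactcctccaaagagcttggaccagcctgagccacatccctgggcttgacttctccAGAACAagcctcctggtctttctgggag
FKBP5: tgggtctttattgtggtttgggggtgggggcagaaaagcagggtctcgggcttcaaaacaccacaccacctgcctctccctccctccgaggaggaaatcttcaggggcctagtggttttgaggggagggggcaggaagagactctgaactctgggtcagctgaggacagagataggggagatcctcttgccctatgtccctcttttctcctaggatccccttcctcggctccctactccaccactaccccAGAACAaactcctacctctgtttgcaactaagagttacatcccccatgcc
In KLK3 the match begins 170 bases before the start. The half-site was widespread: searched on both strands, it occurred in 33 of 494 promoters of genes that were higher (6.68%), in 29 of 311 of genes that were lower (9.32%), in 8.84% of the 10863 tested genes with a promoter in the table and in 14.9% of all 27305 promoters there. The full palindrome, AGAACA and TGTTCT with 3 bases between them, which contains the half-site, was in none of those 10863 promoters. The estrogen receptor half-site GGTCA was in 32.8% of promoters of higher genes, 29.3% of lower genes and 34.4% of all tested genes, and its palindrome, GGTCA and TGACC with 3 bases between them, was in 1 of the 10863. A match is a run of letters and not a bound site, and distal enhancers lie outside these windows.

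Across the list of androgen-induced genes, 51 were in the table, 47 passed the filter of at least 1 CPM in at least 3 C4-2 libraries, and 33 of those rose and none fell. The same call was made for 4.43% of all genes tested. The median log2 fold change of the 47 was 0.56, and 40 of them had all 3 E2 + Enza libraries above all 3 Enza libraries, which 12% of all tested genes did. Further large rises on the list were those of CCDC141 (2.26), CHRNA2 (2.24), C1orf116 (1.81), ADAM7 (1.39) and MBOAT2 (1.33). The size of the ADAM7 rise depended on the processing, from 0.64 to 2.46 over the alternatives, with the call kept. CHRNA2, a subunit of nicotinic acetylcholine receptors, had 8.76, 8.32 and 8.32 CPM with E2 + Enza and 1.17, 1.75 and 1.31 CPM with Enza (SE 0.12, adjusted p = 8.14e-13). CCDC141, a coiled-coil protein, had 2.75, 2.31 and 1.92 CPM with E2 + Enza and 0.0918, 0 and 0.184 CPM with Enza, so its fold change rests on few reads in the Enza group. MBOAT2, a lysophospholipid acyltransferase, had 163, 148 and 168 CPM with E2 + Enza and 64.5, 62.1 and 62.3 CPM with Enza (SE 0.04, adjusted p = 1.28e-17). TRPM8, a cold-sensing calcium channel of prostate epithelium, had 92.4, 90.3 and 102 CPM with E2 + Enza and 40.4, 40.3 and 44.8 CPM with Enza (1.18, SE 0.06, adjusted p = 1.52e-13). MAF, a basic leucine zipper factor, had 4.66, 3.65 and 4.46 CPM with E2 + Enza and 1.95, 1.43 and 1.52 CPM with Enza (1.16, SE 0.14, adjusted p = 1.33e-06). Weaker members that passed included GNMT (0.24) and PLPP1 (0.19).

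**Figure D2:**
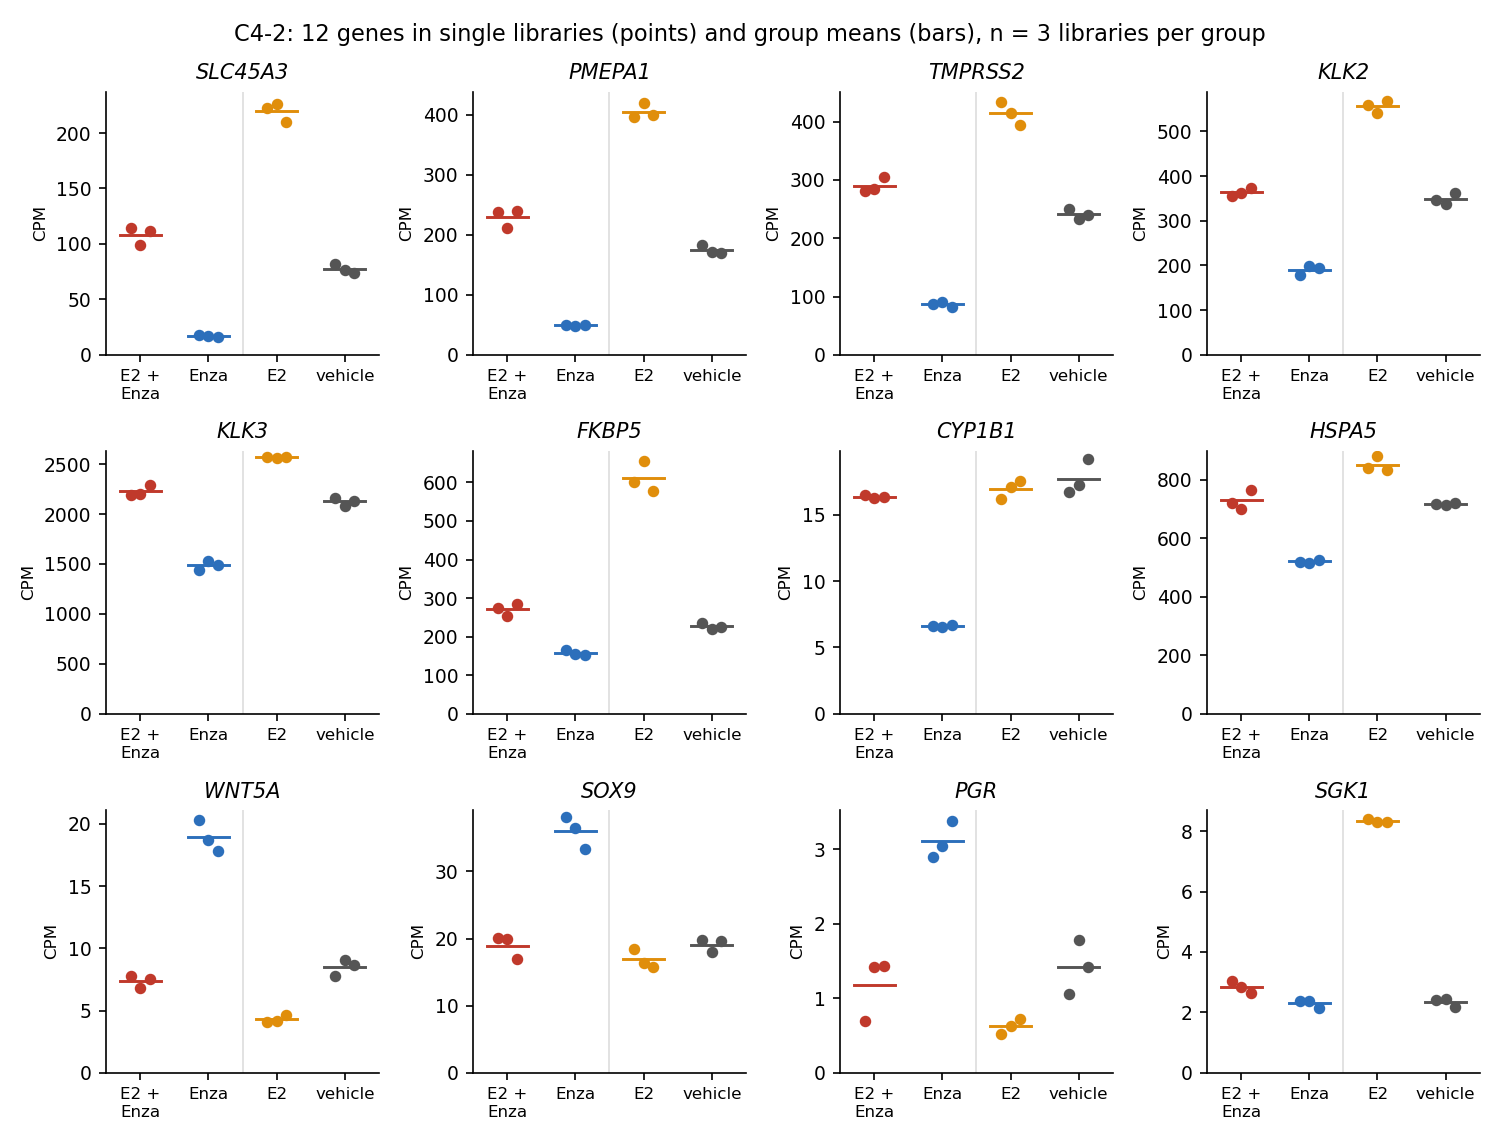
CPM of 12 genes in single C4-2 libraries (points) with group means (bars), from left to right E2 + Enza, Enza, E2 and vehicle, each axis starting at 0. SLC45A3, PMEPA1, TMPRSS2 and the kallikreins are lowest with Enza, WNT5A, SOX9 and PGR are highest with Enza, and SGK1 is high with E2 only (8.3 to 8.39 CPM, against 2.14 to 3.03 CPM in the 9 other libraries).

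Other genes with large increases were not on the androgen-induced list. TGM2, a transglutaminase, had 5.52, 4.35 and 5.46 CPM with E2 + Enza and 0.987, 1.01 and 1.08 CPM with Enza (1.87, SE 0.12, adjusted p = 2.78e-11). THBS1, the matrix glycoprotein thrombospondin, had 136, 120 and 124 CPM with E2 + Enza and 52.9, 51.4 and 53.6 CPM with Enza (1.25, SE 0.06, adjusted p = 1.67e-14). CYP1B1, a cytochrome that hydroxylates estradiol and is induced by the aryl hydrocarbon receptor, had 16.5, 16.3 and 16.3 CPM with E2 + Enza and 6.59, 6.58 and 6.66 CPM with Enza (1.25, SE 0.07, adjusted p = 4.04e-12). In these 3 genes the groups did not overlap, which the rule for the largest rises required. CYP1A1, another target of the aryl hydrocarbon receptor, went the other way, with 4.66, 3.76 and 4.05 CPM with E2 + Enza and 6.01, 6.27 and 6.11 CPM with Enza (-0.51, SE 0.11, adjusted p = 0.00211). The long noncoding RNA SCIRT (1.43), ZNF385B (1.36), the kinase scaffold AKAP12 (1.34) and the phospholipase PLA2G4E (1.32) were also among the 15 genes with the largest rises, at mean levels of 1 CPM or more.

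Genes that estradiol lowered in the presence of enzalutamide were led by AMIGO2 and WNT5A. AMIGO2, a cell adhesion protein, had 0.631, 0.935 and 0.763 CPM with E2 + Enza and 2.62, 2.48 and 3.29 CPM with Enza (-1.37, SE 0.19, adjusted p = 1.13e-05). WNT5A, a ligand of noncanonical WNT signalling, had 7.78, 6.83 and 7.51 CPM with E2 + Enza and 20.3, 18.7 and 17.9 CPM with Enza, or 0.405 times the Enza level (-1.30, SE 0.09, adjusted p = 7.18e-11). SOX9, a transcription factor of prostate bud outgrowth, had 20, 19.9 and 16.9 CPM with E2 + Enza and 38, 36.5 and 33.4 CPM with Enza (-0.91, SE 0.07, adjusted p = 4.58e-10). The lowest Enza library lay above the highest E2 + Enza library in all 3 genes, as the rule for the largest falls required. COLEC12, a scavenger receptor with a collagen stalk, was the most abundant in CPM of the leading decreases, with 88.4, 86.7 and 101 CPM with E2 + Enza and 176, 171 and 173 CPM with Enza (-0.91, SE 0.06, adjusted p = 5.25e-12). LRRN1, a leucine-rich repeat membrane protein, had 4.09, 4.07 and 5.02 CPM with E2 + Enza and 9.64, 9.98 and 9.29 CPM with Enza (-1.06, SE 0.11, adjusted p = 1.93e-07). PLD1, a phospholipase that makes phosphatidic acid, had 7.41, 7.9 and 8.14 CPM with E2 + Enza and 14.6, 15.7 and 14.9 CPM with Enza (-0.90, SE 0.09, adjusted p = 2.18e-08). NEDD9, a scaffold of focal adhesions, fell by 0.90 (SE 0.09, adjusted p = 1.26e-07).

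The other leading decreases were PLEKHS1 (-1.21), HOXC13-AS (-1.17), PGR (-1.13), MAB21L3 (-1.09), the sodium-glucose cotransporter SLC5A1 (-1.03), CSRNP3 (-1.02), the homeobox factor HOXC13 (-0.92) and the amino acid transporter SLC6A20 (-0.88). HOXC13 and its antisense transcript fell together; the library kit keeps the strand, the strand setting of the counting is not given in the sources used here, and reads of the pair may not be separable. Of 27 androgen-repressed genes in the table, 16 passed the filter, 9 of these fell and none rose, where 2.94% of all tested genes fell. Their median log2 fold change was -0.40, and 10 of the 16 had all 3 E2 + Enza libraries below all 3 Enza libraries, against 10.1% of all genes. Besides WNT5A, SOX9, LRRN1 and PLD1, the 9 included the chemokine-scavenging receptor ACKR3, with 15.2, 15.5 and 15.9 CPM with E2 + Enza and 24.3, 27 and 25.9 CPM with Enza (-0.71, SE 0.06, adjusted p = 1.32e-08), and the kinase inhibitor CAMK2N1 (-0.67, SE 0.05, adjusted p = 1.16e-09). DAPK1, a death-associated kinase, fell by 0.41 (SE 0.07, adjusted p = 0.000478). ABCA1 and DDC made up the rest, and their calls were lost when 1 of 3 libraries was left out (ABCA1 without Enza library 1 or 2 or E2 + Enza library 1, adjusted p = 0.0568 to 0.0968, and DDC without Enza library 3 or E2 + Enza library 1 or 2, adjusted p = 0.0649 to 0.0714). OPRK1, an opioid receptor gene on the list, did not pass the C4-2 filter.

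Genes that mark the luminal prostate did not move as a block. Of 18 tested, 10 rose and 4 fell, with a median of 0.23, against 4.43% and 2.94% of all genes. Beside the androgen-induced genes already given, STEAP1 (0.39), STEAP2 (0.36) and SPDEF (0.37), an ETS factor of secretory epithelium, rose, and the pioneer factor FOXA1 rose by 0.12 (adjusted p = 0.0483). The FOXA1 call was lost without Enza library 2 or 3 or E2 + Enza library 1 or 3 (adjusted p = 0.104 to 0.244). The 4 that fell were ACP3, which encodes prostatic acid phosphatase, FOLH1, which encodes prostate-specific membrane antigen, and the transcription factors HOXB13 and GATA2. ACP3 had 9.24, 8.44 and 10.4 CPM with E2 + Enza and 18.7, 16.5 and 16.3 CPM with Enza (-0.85, SE 0.08, adjusted p = 2.1e-08). FOLH1 had 589, 596 and 648 CPM with E2 + Enza and 710, 704 and 715 CPM with Enza (-0.22, SE 0.04, adjusted p = 0.000716). HOXB13 had 397, 388 and 432 CPM with E2 + Enza and 488, 489 and 490 CPM with Enza (-0.27, SE 0.05, adjusted p = 0.000243). GATA2 had 335, 313 and 331 CPM with E2 + Enza and 399, 410 and 407 CPM with Enza (-0.31, SE 0.04, adjusted p = 7.25e-07). All 4 were separated without overlap, as 10.1% of all tested genes were in that direction. The shifts were smaller in FOLH1, HOXB13 and GATA2 than in ACP3.

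Targets of the estrogen receptor were mixed. Of 20 tested genes of a list known to be activated by ERα in breast cancer cells, 4 rose and 3 fell. The median of the 20 was 0.004, and 4.43% of all genes tested rose and 2.94% fell. GREB1, a receptor cofactor, had 19.2, 19.4 and 17.3 CPM with E2 + Enza and 8.08, 8.44 and 8.2 CPM with Enza (1.13, SE 0.07, adjusted p = 2.37e-11). CXCL12, a chemokine, had 4.72, 5.63 and 5.73 CPM with E2 + Enza and 2.55, 1.93 and 1.77 CPM with Enza (1.19, SE 0.12, adjusted p = 3.86e-08). The keratin KRT19 (0.73) and the fatty acid elongase ELOVL2 (0.65) also rose without overlap between the groups, and 12% of all tested genes were separated in that direction. PGR, which encodes the progesterone receptor and is a standard ERα target, fell: it had 0.692, 1.43 and 1.43 CPM with E2 + Enza and 2.89, 3.05 and 3.39 CPM with Enza (-1.13, SE 0.18, adjusted p = 9.1e-05). CA12 (-0.24) and RARA (-0.19) fell as well, the RARA call being lost without Enza library 2 or 3 or E2 + Enza library 1 or 2 (adjusted p = 0.0641 to 0.176). GREB1 is also induced by androgens in LNCaP, so that the androgen and estrogen lists are not exclusive.

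The PGR promoter is printed as that of the estrogen receptor target that fell, with the GGTCA half-site, here on the opposite strand as TGACC, in capitals (chr11:101129028-101129327, minus strand).
PGR: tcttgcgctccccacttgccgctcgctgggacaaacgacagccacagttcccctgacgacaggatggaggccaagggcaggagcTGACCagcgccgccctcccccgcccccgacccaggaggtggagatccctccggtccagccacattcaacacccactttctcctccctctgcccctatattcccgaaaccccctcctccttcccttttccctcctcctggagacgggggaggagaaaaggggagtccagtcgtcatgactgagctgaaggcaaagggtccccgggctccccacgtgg

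Among steroid receptors and their cofactors, 1 of 11 genes tested rose and 2 fell, against 4.43% and 2.94% of all genes; 6 of the 11 had all 3 E2 + Enza libraries below all 3 Enza libraries and 2 above, against 10.1% and 12%. ESR2, which encodes ERβ, was near the limit of the filter, with 1.77, 2.38 and 1.5 CPM with E2 + Enza and 1.74, 2.43 and 1.87 CPM with Enza; it was not called (-0.08, interval -0.39 to 0.23, adjusted p = 0.835), and ESR1 was not analysed here. NR3C2, the mineralocorticoid receptor, rose, with 12.8, 11.9 and 11.6 CPM with E2 + Enza and 8.47, 8.36 and 7.86 CPM with Enza (0.53, SE 0.09, adjusted p = 0.000168). Besides PGR, GPER1, a membrane receptor proposed to bind estrogens, fell by 0.38 (SE 0.11, adjusted p = 0.0398), a call that was lost without Enza library 1 (adjusted p = 0.179), Enza library 3 (0.117), E2 + Enza library 2 (0.115) or E2 + Enza library 3 (0.147). Of 16 genes that androgens share with glucocorticoids, 4 rose and 1 fell: ZBTB16 (1.17, SE 0.06, adjusted p = 6.76e-13), FKBP5, the circadian gene PER1 (0.58) and CEBPD (0.49) rose, and KLF4 fell by 0.38. SGK1, a kinase induced by several steroid receptors, was not called, with 3.03, 2.83 and 2.64 CPM with E2 + Enza and 2.36, 2.39 and 2.14 CPM with Enza (0.25, SE 0.12, adjusted p = 0.249), although its groups did not overlap.

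Genes of the endoplasmic reticulum were higher as a group with E2 + Enza than with Enza. Of 20 unfolded protein response genes tested, 13 rose and none fell, against 4.43% and 2.94% of all genes; all 20 had positive log2 fold changes, and the median was 0.17. HSPA5, the main lumenal chaperone, had 722, 700 and 766 CPM with E2 + Enza and 520, 515 and 527 CPM with Enza, a fold change of 1.4 (log2 0.48, SE 0.04, adjusted p = 2.31e-09). HERPUD1 (0.41, SE 0.05, adjusted p = 7.37e-07) and SEL1L (0.38, SE 0.04, adjusted p = 1.36e-07), which act in the degradation of misfolded proteins, and the secreted factor MANF (0.37, SE 0.05, adjusted p = 8.9e-06) rose with it. The 13 increases ran from 0.14 to 0.48. Under the alternatives the number of members called ranged from 9, without E2 + Enza library 3, to 15. Of 20 genes of the amino acid stress (ATF4) branch, 1 rose, the cystine transporter SLC7A11 (0.22), and none fell.

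HSPA5 is printed because its promoter holds the endoplasmic reticulum stress element, searched as CCAAT and CCACG with 9 bases between them and shown in capitals (chr9:125241294-125241593, minus strand).
HSPA5: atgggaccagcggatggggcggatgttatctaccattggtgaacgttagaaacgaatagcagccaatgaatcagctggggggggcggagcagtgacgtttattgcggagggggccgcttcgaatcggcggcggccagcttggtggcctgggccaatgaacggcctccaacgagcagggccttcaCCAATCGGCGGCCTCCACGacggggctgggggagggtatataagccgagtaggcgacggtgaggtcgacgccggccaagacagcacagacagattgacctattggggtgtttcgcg
The element occurred in 3 of 494 promoters of genes that were higher (0.607%), in none of 311 of genes that were lower, in 15 of 10863 of all tested genes (0.138%) and in 0.0806% of all promoters of the table. Besides HSPA5, the 3 were HSP90B1 (log2 fold change 0.26, adjusted p = 0.000432), another lumenal chaperone, and FICD (0.23, adjusted p = 0.0438), an enzyme that modifies HSPA5. The FICD call was lost without any 1 of the Enza libraries or without E2 + Enza library 2 or 3 (adjusted p = 0.0575 to 0.207). The ATF4-type motif ATTGCATCA was in 1 promoter of the higher and 2 of the lower genes, and in 0.129% of all tested genes.

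In lipid metabolism, single genes stood out from their pathways. For the counts below, 4.43% of all genes tested rose and 2.94% fell. Of 14 fatty acid synthesis genes, 3 rose and none fell: ELOVL7 (0.77, SE 0.05, adjusted p = 5.56e-12) and ELOVL5 (0.55, adjusted p = 1.25e-10), which elongate fatty acids, and ACSL3 (0.72, adjusted p = 2.86e-12), which activates them. ELOVL7 had 118, 115 and 126 CPM with E2 + Enza and 68.4, 66.8 and 74.1 CPM with Enza. ACSL3 had 351, 333 and 370 CPM with E2 + Enza and 215, 209 and 215 CPM with Enza. The median of the 14 was -0.02. Of 23 genes of cholesterol synthesis and uptake, 4 rose, FDFT1 (0.19) and INSIG1 (0.15) among them, and the median was 0.05. The INSIG1 call was lost without any 1 of the Enza libraries or E2 + Enza library 3 (0.0615 to 0.229). Among 16 amino acid transporters, SLC43A1 (0.40), SLC36A1 (0.31), SLC7A11 and SLC38A1 (0.11) rose, SLC38A1 not without Enza library 1 or 2 or E2 + Enza library 1 or 3 (adjusted p = 0.0799 to 0.229). SAT1, which acetylates polyamines for export, was the only called gene of 13 in polyamine metabolism (0.43, adjusted p = 0.000105).

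Among growth factor and ErbB genes, 5 of 20 rose and none fell, with a median of 0.005. Of all genes tested, 4.43% rose and 2.94% fell, which applies to each list of this paragraph. The 5 were the insulin-like growth factor receptor IGF1R, its ligand IGF1 (0.45), the adaptor proteins IRS2 (0.70) and IRS1 (0.26), and the phosphatase DUSP4 (0.83). The IRS1 call was lost without Enza library 1 or 2 or E2 + Enza library 1 or 3 (adjusted p = 0.0687 to 0.114). IGF1R had 116.4, 108 and 108 CPM with E2 + Enza and 66.8, 62.4 and 66.2 CPM with Enza (0.76, SE 0.05, adjusted p = 1e-10). DUSP4 had 135, 132 and 133 CPM with E2 + Enza and 74.3, 74.3 and 75.4 CPM with Enza (SE 0.04, adjusted p = 8.34e-14). In TGF-β and BMP signalling, PMEPA1 and the BMP receptor BMPR1B (0.50) rose, and BAMBI (-0.46), ID1 (-0.40), ID3 (-0.36) and BMP7 (-0.20) fell, 6 of 17 genes in all. Of these, ID3 was not called without Enza library 3 (adjusted p = 0.0553) or E2 + Enza library 2 (0.0523), ID1 without Enza library 1 or 3 or E2 + Enza library 2 or 3 (0.105 to 0.204), and BMP7 without any 1 of the Enza libraries or E2 + Enza library 2 (0.0685 to 0.201). In WNT signalling, WNT7B rose (0.30) while WNT5A, SOX9 and the receptor ligase RNF43 (-0.31) fell, out of 12. Of 9 ETS factors, SPDEF, ELK4 (0.33) and EHF (0.31) rose and ELF3 fell by 0.56.

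Few cell cycle genes were called after 12 h. None of 29 genes of G1/S and DNA replication was called by limma, with a median of -0.03; 4 had an unadjusted p under 0.05, and 3 were called lower when scaled to total reads. Of 26 G2/M genes, 1 was called, KIF20A (0.13, adjusted p = 0.0265), and not without Enza library 2 or 3 or E2 + Enza library 1 or 3 (0.0671 to 0.126). Of 22 p53 targets, 6 fell and 1 rose, against 2.94% and 4.43% of all genes. BTG2 (-0.31, SE 0.04, adjusted p = 8.9e-06), DDB2 (-0.22) and the cell cycle inhibitor CDKN1A (-0.20) were lower, and the stress cytokine GDF15 was higher (0.34, adjusted p = 0.00919), except without E2 + Enza library 3 (0.0667). The other 3 that fell were SESN1 (-0.24), PHLDA3 (-0.23) and TP53INP1 (-0.15), and each lost its call when any 1 of 2 to 4 libraries was left out (adjusted p = 0.0512 to 0.15). Of 14 immediate early genes, NR4A1 rose (0.29) and KLF4 (-0.38), JUNB (-0.24), MCL1 (-0.17) and JUN (-0.15) fell. The MCL1 call was lost without E2 + Enza library 2 (adjusted p = 0.0663) and the JUN call without any 1 of the 6 libraries (0.0575 to 0.133). In the hypoxia and glycolysis list 3 of 20 rose, SLC2A3 (0.86), HK2 (0.20) and PFKFB3 (0.20), the last 2 not without E2 + Enza library 1 (adjusted p = 0.0524 and 0.101). SLC2A3, a glucose transporter, stayed under 0.6 CPM in all 6 libraries, and PFKFB3 also lost its call without any 1 of the Enza libraries or E2 + Enza library 3 (0.0687 to 0.248). A single gene was called in the NF-κB list (IRF1, -0.52), the heat shock list (HSPB1, -0.20), the oxidative stress (NRF2) list (SLC7A11) and the neuroendocrine list (SYT4, -0.22). The IRF1 call was lost without Enza library 1 or 2 or E2 + Enza library 1 or 3 (adjusted p = 0.0626 to 0.141), and that of HSPB1 without E2 + Enza library 2 (0.0826). Limma called no member among 11 interferon genes, 13 mitochondrially encoded mRNAs (median -0.08), 19 replication-dependent histone genes (-0.05), 31 cytosolic ribosomal protein genes (0.02), or the basal or squamous, fibroblast, leukocyte and endothelial markers; at an unadjusted p under 0.05 there were 2 histone genes and 1 endothelial marker and none in the other 6 lists. Histone genes have near-identical copies, whose reads may be shared.

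**Figure D3:**
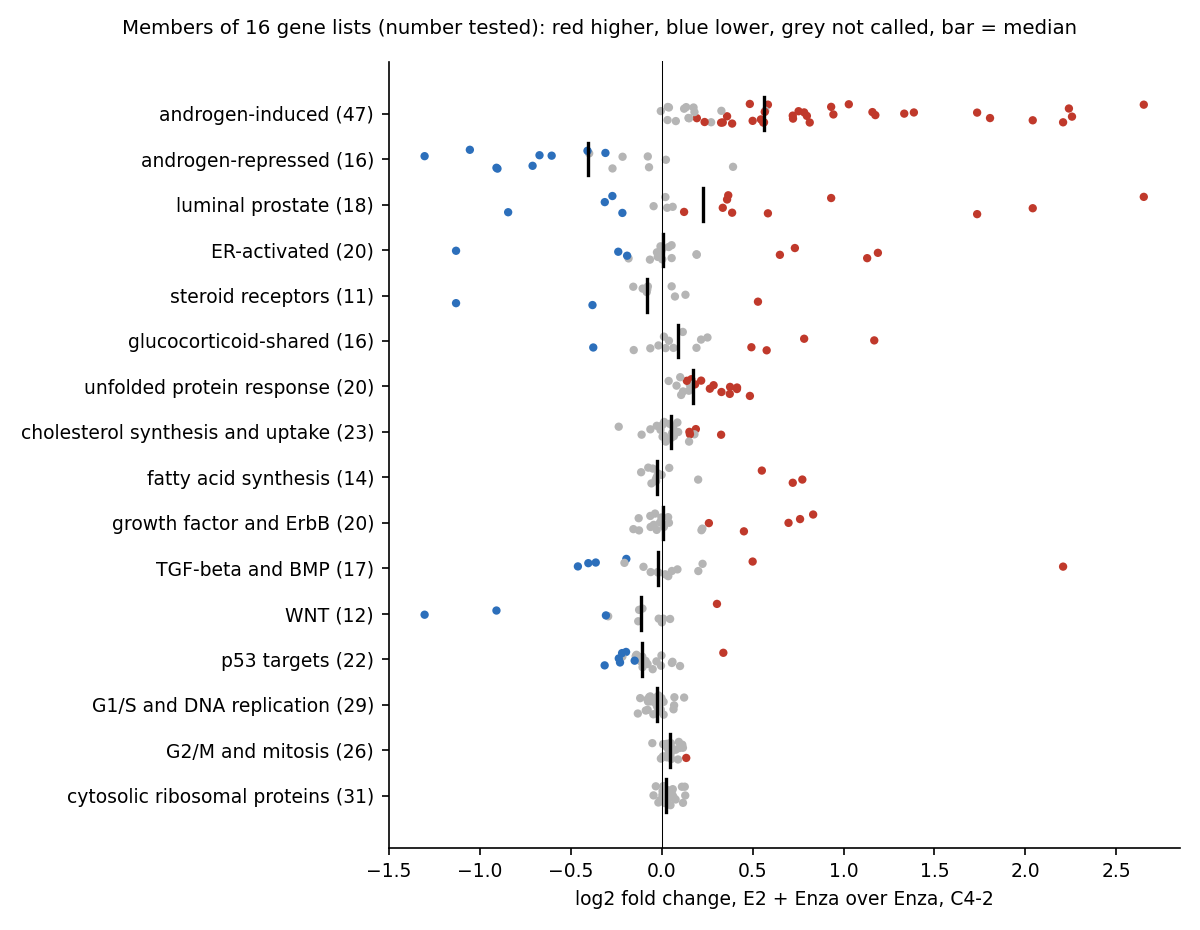
Log2 fold changes, E2 + Enza over Enza in C4-2, of the tested members of 16 gene lists, 1 point per gene and a black bar at each list's median. The androgen-induced list lies right of 0 with its median at 0.56 and the androgen-repressed list left of it at -0.40, the unfolded protein response list is shifted by 0.17, and ribosomal protein and cell cycle genes lie around 0.

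Estradiol was also given without enzalutamide, and the comparison of those libraries with vehicle shares no library with the comparison above. There 817 genes were called (5.82% of 14027), 381 higher and 436 lower. Both comparisons called 420 genes, 40.6% of the 1035 and 51.4% of the 817, of which 236 were higher in both, 174 lower in both and 10 opposite. Without vehicle library 1 and E2 library 3, the second comparison called 396 genes, 252 higher and 144 lower, and 292 were shared, 27.7% and 73.7% of the lists. Across the 14027 genes the log2 fold changes correlated at Pearson's r = 0.36 and Spearman's rho = 0.09, and genes are not independent replicates. Of the androgen-induced list, 39 of 47 rose and 1 fell with E2 alone (2.72% and 3.11% of all genes), with a median of 0.58; without those 2 libraries 36 of 45 rose and none fell (1.8% and 1.03% of all genes). Of the 20 unfolded protein response genes, 5 rose with E2 alone and the median was 0.10, and 4 rose without those libraries.

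The interaction asked whether the effect of E2 with Enza present differed from its effect without Enza. It was called for 210 genes (1.5% of 14027), 148 (1.06%) more positive with Enza and 62 (0.442%) more negative, with a median of 0.03 over all genes. In 72 of the 210 the effect had the same sign and was larger with Enza, in 14 it was smaller, and in 124 the signs differed. The number called depended on the libraries. Leaving out E2 + Enza library 2 gave 332 genes and leaving out E2 + Enza library 3 gave 131, while Enza library 2 and Enza library 3 gave 106 and 132. Removing both vehicle library 1 and E2 library 3 left 96 genes (70 positive, 26 negative), removing the vehicle library alone left 130, and removing the E2 library alone lay between those counts. The share of positive calls was 70.5%, and 57.8% when scaled to total reads or 55.7% after cyclic loess.

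For several strongly androgen-induced genes the E2 effect was larger with Enza. SLC45A3 differed by 2.65 with Enza present; without Enza it had 223, 227 and 210 CPM with E2 and 81.7, 76.6 and 73.7 CPM with vehicle, a log2 fold change of 1.50. The difference was 1.15 (SE 0.08, adjusted p = 9.6e-10). C1orf116 differed by 1.14 (1.81 with Enza, 0.67 without), PMEPA1 by 0.99 (2.21 and 1.22) and TMPRSS2 by 0.96 (1.74 and 0.78), each with an adjusted p of 3.07e-10 or lower. CYP1B1 was not called without Enza: it had 16.2, 17.1 and 17.6 CPM with E2 and 16.7, 17.2 and 19.2 CPM with vehicle (-0.06, adjusted p = 0.672), and the difference was 1.31 (SE 0.11, adjusted p = 1.14e-08). STYXL2 showed the largest positive difference (1.43, SE 0.20, adjusted p = 0.000133), with effects of 1.13 and -0.30. The differences for KLK3 (0.31, adjusted p = 0.0114), KLK2 (0.26, adjusted p = 0.0371) and HSPA5 (0.24, adjusted p = 0.0332) were called, and all 3 calls were lost without vehicle library 1 and E2 library 3 (adjusted p = 0.0624, 0.0824 and 0.163). The KLK2 call was also lost when any 1 of 7 libraries was left out (0.0575 to 0.103), and with TMM scaling (0.0522), total reads (0.187), cyclic loess (0.165) or no filter (0.0684). The HSPA5 call was lost for any 1 of 10 of the 12 libraries (0.0516 to 0.103) and with no filter (0.0527), and the KLK3 call in the fit of all 54 libraries (0.0913).

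In another group of genes the E2 effect was more negative with Enza. SGK1 had 8.39, 8.31 and 8.3 CPM with E2 and 2.42, 2.46 and 2.19 CPM with vehicle (1.63, adjusted p = 3.09e-10), and the effect with Enza was lower by 1.38 (SE 0.17, adjusted p = 1.13e-05). RUNX1, a runt-domain factor, had an effect of 0.04 with Enza and 1.15 without (difference -1.11, SE 0.21, adjusted p = 0.0033). FKBP5 rose under both conditions but less with Enza (0.78 and 1.43, difference -0.64, SE 0.07, adjusted p = 1.8e-06). ERRFI1, a feedback inhibitor of the EGF receptor, had effects of -0.06 and 0.29 (difference -0.35, SE 0.07, adjusted p = 0.00447), and the giant muscle protein gene TTN of 0.15 and 1.09 (-0.93, adjusted p = 0.0107). SOX9 and NEDD9 fell with Enza present and were not called without it, with differences of -0.73 (SE 0.10, adjusted p = 5.96e-05) and -0.80 (SE 0.13, adjusted p = 0.00122). PCOLCE was called narrowly (-0.95, adjusted p = 0.0454), and not when any 1 of 10 of the 12 libraries was left out (0.0564 to 0.165) or in 5 other alternatives (0.0511 to 0.0664). Of the 17 named genes with a called interaction, 12 kept it without vehicle library 1 and E2 library 3; TTN (adjusted p = 0.097) and PCOLCE (0.309) lost it beside the 3 above.

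For several of the leading genes no difference was called, and its interval was wide. It ran from -0.12 to 0.60 for CHRNA2, from -0.39 to 0.55 for CCDC141 and from -0.07 to 0.36 for GREB1. The CCDC141 value depends on the amount added before the logarithm, because the Enza libraries held 0 to 0.184 CPM.

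**Figure D4:**
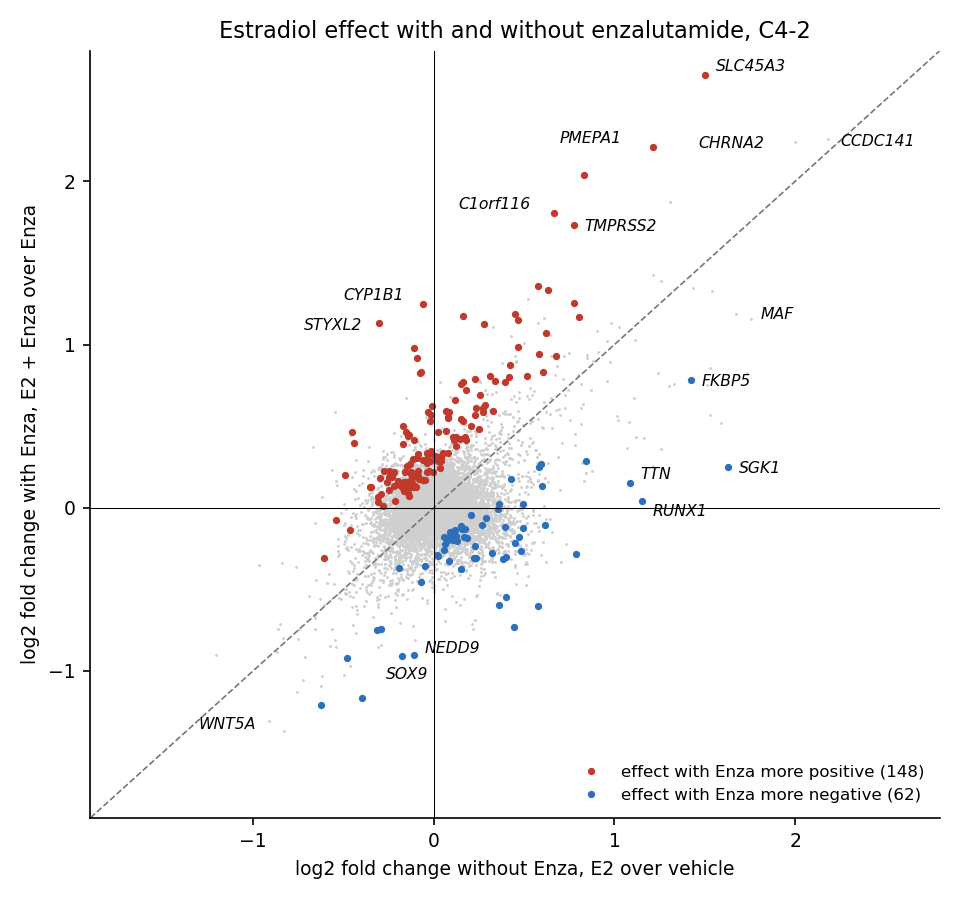
Log2 fold changes of 14027 genes in C4-2, with Enza (E2 + Enza over Enza, vertical) against without Enza (E2 over vehicle, horizontal); the dashed line marks equal effects. Red genes (148) had a more positive and blue genes (62) a more negative effect with Enza: SLC45A3, PMEPA1 and TMPRSS2 lie above the line, CYP1B1 and STYXL2 just left of 0 on the horizontal axis, and SGK1, RUNX1 and TTN near 0 on the vertical axis.

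Set against vehicle, few genes were called in cells with both agents. The comparison shares the E2 + Enza libraries with the first, so the levels are only given side by side. It called 11 of 14027 genes (0.0784%), 6 higher (0.0428%) and 5 lower (0.0356%), none by 2-fold, while 1224 genes had an unadjusted p under 0.05. The 6 were CHRNA2 (0.81), TGM2 (0.64), SLC45A3 (0.48), PMEPA1 (0.39), TMPRSS2 (0.26) and FKBP5 (0.25), and the 5 included COLEC12 (-0.36), TRIB2 (-0.25), SLC30A4 (-0.24) and NETO1 (-0.19), named because their number was small. The count moved between 3 (without vehicle library 2) and 34 (without E2 + Enza library 3) when a library was left out; the others that moved it were vehicle library 1 (6 genes) and vehicle library 3 (4 genes), and 9 genes were called without vehicle library 1 and E2 library 3. SLC45A3, PMEPA1 and COLEC12 kept their call whichever of the 6 libraries was left out. CHRNA2 lost it without vehicle library 2 (adjusted p = 0.0648) and TMPRSS2 without vehicle library 2 (0.119) or 3 (0.101), and TGM2, FKBP5, TRIB2, SLC30A4 and NETO1 lost it without either of these and without 2 or 3 further libraries (0.0507 to 0.255). Relative to the vehicle mean, SLC45A3 stood at 140% with E2 + Enza and 21.7% with Enza, KLK3 at 105% and 69.9%, KLK2 at 104% and 54.7%, HSPA5 at 102% and 72.7%, CYP1B1 at 92.5% and 37.3%, WNT5A at 86.8% and 223% and SOX9 at 99.2% and 188%. Without vehicle library 1 these levels became 144% and 22.4% for SLC45A3 and 83.2% and 214% for WNT5A, and those of the other 5 genes moved less than the WNT5A level with Enza did. Enza itself, set against vehicle, lowered 801 genes (5.71%) and raised 383 (2.73%), among them 35 lower and none higher of the 47 androgen-induced genes, and 9 higher and none lower of the 16 androgen-repressed ones. Without vehicle library 1 and E2 library 3 it lowered 513 genes and raised 238, among them 32 lower and none higher of 45 androgen-induced genes and 7 higher and none lower of 15 androgen-repressed ones. Over the 47 androgen-induced genes the median level was 107% of vehicle with E2 + Enza and 73.9% with Enza, and over the 16 androgen-repressed genes 89.8% and 134%. Enza lowered 16 of the 20 unfolded protein response genes and raised none, or 14 and none without vehicle library 1 and E2 library 3. Over these 20 genes the median level was 98.7% of vehicle with E2 + Enza and 83.9% with Enza. For KLK3 the interval of the log2 difference from vehicle was -0.03 to 0.16, and for KLK2 -0.03 to 0.16.

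The same contrast in LNCaP, the parental line of C4-2, called 3291 of 14251 genes (23.1%), 1733 higher (12.2%) and 1558 lower (10.9%), and in 22Rv1 1180 of 14866 (7.94%), 611 higher (4.11%) and 569 lower (3.83%). Of 1004 genes called in C4-2 and tested in both, 723 were also called in LNCaP, 72% of the C4-2 list and 22.8% of the LNCaP list: 430 were higher in both, 273 lower in both and 20 opposite. With 22Rv1 280 genes were shared, 29.6% of the C4-2 list and 29.2% of the 22Rv1 list, with 165 higher, 77 lower and 38 opposite. The log2 fold changes correlated across genes at r = 0.61 with LNCaP and 0.35 with 22Rv1. The difference between lines was itself tested in a fit of all 54 libraries over 16026 genes. The effect in C4-2 minus that in LNCaP was called for 840 genes (5.24%), 412 positive and 428 negative, and that in C4-2 minus 22Rv1 for 924 (5.77%), 468 positive and 456 negative.

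On the log2 scale, androgen-induced genes responded less in C4-2 than in LNCaP. Of the 47, 28 had a called smaller effect in C4-2 and 3 a larger one, while 2.67% and 2.57% of all genes did; the median of the 47 was 0.56 in C4-2 and 1.01 in LNCaP. KLK2 rose by 0.93 in C4-2 and 2.09 in LNCaP (difference -1.16, SE 0.07, adjusted p = 1.4e-17). Its mean level was 364 CPM with E2 + Enza and 191 CPM with Enza in C4-2, and 222 and 51.7 CPM in LNCaP. KLK3 averaged 2229 CPM with E2 + Enza and 1487 CPM with Enza in C4-2, and 1261 and 494 CPM in LNCaP. Both folds thus start from a higher Enza level in C4-2. KLK3 rose by 0.58 in C4-2 and 1.35 in LNCaP (-0.77, SE 0.10, adjusted p = 2.86e-07), KLK4 by 0.34 and 0.73 (-0.40), FKBP5 by 0.78 and 1.65 (-0.87), TMPRSS2 by 1.74 and 2.27 (-0.53), GREB1 by 1.13 and 2.12 (-0.99) and MAF by 1.16 and 3.01 (-1.85). The largest negative differences were SLC38A4 (-3.54), PDE3A (-2.27), CHRNA2 (-2.03), CCDC141 (-2.00) and HPGD (-1.91). PDE3A averaged 0.281 CPM with E2 + Enza and 0.242 CPM with Enza in C4-2, and HPGD 0.278 and 0.19 CPM. Neither passed the C4-2 filter, so neither is among the 47, and PDE3A is not on the androgen-induced list. SLC38A4, an amino acid transporter, averaged 0.409 ± 0.18 CPM with E2 + Enza and 0.106 ± 0.07 CPM with Enza in C4-2, and 9.44 ± 1.8 and 0.0756 ± 0.09 CPM in LNCaP (SD, n = 3 each). For SLC45A3 (0.09, adjusted p = 0.672) and PMEPA1 (-0.18, adjusted p = 0.234) no difference from LNCaP was called.

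The largest positive differences from LNCaP were in genes at low levels in C4-2. They were OPRK1 (2.42), GAGE12C (2.03), SI (1.81), TLL1 (1.61) and CBLN2 (1.51). OPRK1 averaged 0.0156 CPM with E2 + Enza and 0.0606 CPM with Enza in C4-2, against 1.74 ± 0.28 and 12.5 ± 0.55 CPM in LNCaP, where it fell by 2.54. SI, TLL1 and CBLN2 likewise stayed under 0.4 CPM on average in both C4-2 groups. GAGE12C has near-identical copies and varied between libraries, with 1.24, 0.982 and 1.25 CPM with E2 + Enza and 1.31, 0.153 and 0.622 CPM with Enza in C4-2, and its call (adjusted p = 0.0257) was lost when any 1 of 6 libraries was left out (0.0592 to 0.128). PLD1 fell less in C4-2 than in LNCaP (-0.90 and -2.06, difference 1.16), but the difference was 0.29 and not called with a pseudocount of 2 (adjusted p = 0.103) and 1.93 with one of 0.1. SOX9 fell more (-0.91 and -0.48, difference -0.43, adjusted p = 0.0223), a call lost on leaving out any 1 of 6 libraries (0.0515 to 0.117). ERRFI1 rose in LNCaP (0.59) and was not called in C4-2 (difference -0.66).

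Against 22Rv1 the androgen-induced list was divided, with 18 genes larger and 11 smaller in C4-2, while 2.92% and 2.85% of all genes were. TMPRSS2 rose by 1.74 in C4-2, at a mean of 290 ± 13 CPM with E2 + Enza and 86.8 ± 4 CPM with Enza, and by 0.37 in 22Rv1, at 18.7 ± 0.3 and 14.4 ± 1.5 CPM (difference 1.36, SE 0.08, adjusted p = 3.3e-19). TGM2 (1.65), ZNF385B (1.42), the kinase PLK2 (1.41) and SLC17A4 (1.36) were the other 4 leading positive differences. The effect was also more positive in C4-2 for SLC45A3 (0.48), PMEPA1 (0.33), GREB1 (0.85), CCDC141 (1.91) and HSPA5 (0.27). SLC17A4 averaged 0.0154 CPM with E2 + Enza and 0 CPM with Enza in C4-2, and fell by 1.32 in 22Rv1. PLK2 rose in C4-2 (0.87) and fell in 22Rv1 (-0.53). The negative differences were led by ADRA2A (-2.57), F3 (-1.85), SLC38A4 (-1.78), TMCC3 (-1.73) and KCNMA1 (-1.57). F3 averaged 0.00771 CPM with E2 + Enza and 0.0146 CPM with Enza in C4-2, and rose by 1.83 in 22Rv1. ADRA2A, an adrenergic receptor, averaged 4.39 ± 0.22 CPM with E2 + Enza and 5.87 ± 0.64 CPM with Enza in C4-2 (log2 fold change -0.38), against 45.5 ± 1.3 and 9.57 ± 0.52 CPM in 22Rv1 (2.19). KLK2 (-0.46), KLK3 (-0.57), KLK4 (-0.22), FKBP5 (-1.11), CHRNA2 (-1.04) and ERRFI1 (-0.96) were smaller in C4-2, KLK4 not when any 1 of 9 of the 12 libraries was left out (adjusted p = 0.0525 to 0.128).

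Genes that fell in C4-2 and not in 22Rv1 included WNT5A and SOX9. WNT5A differed by -1.32 between the lines (-1.30 in C4-2, 0.02 in 22Rv1; adjusted p = 8.1e-10), and SOX9 by -1.37 (-0.91 and 0.46; adjusted p = 2.6e-12). ACKR3 (-0.71) and PGR (-1.03) differed as well, and both were under 0.2 CPM in 22Rv1. None of 29 G1/S and DNA replication genes was called in C4-2, where 7.38% of all genes tested were. In 22Rv1 16 of them rose, against 4.11% of all genes tested there. A called smaller effect in C4-2 than in 22Rv1 was found for 16, against 2.85% of all genes. With weights that follow the read counts (voom), 6 of the 20 named differences from LNCaP and 6 of the 25 from 22Rv1 lost their call. Besides SOX9 these were genes under 1 CPM on average in at least 1 of the groups compared. With a pseudocount of 0.1, CBLN2 (adjusted p = 0.11) lost its call against LNCaP, and TGM2 (0.0524), SLC38A4 (0.0757), ACKR3 (0.147) and PGR (0.246) lost theirs against 22Rv1.

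**Figure D5:**
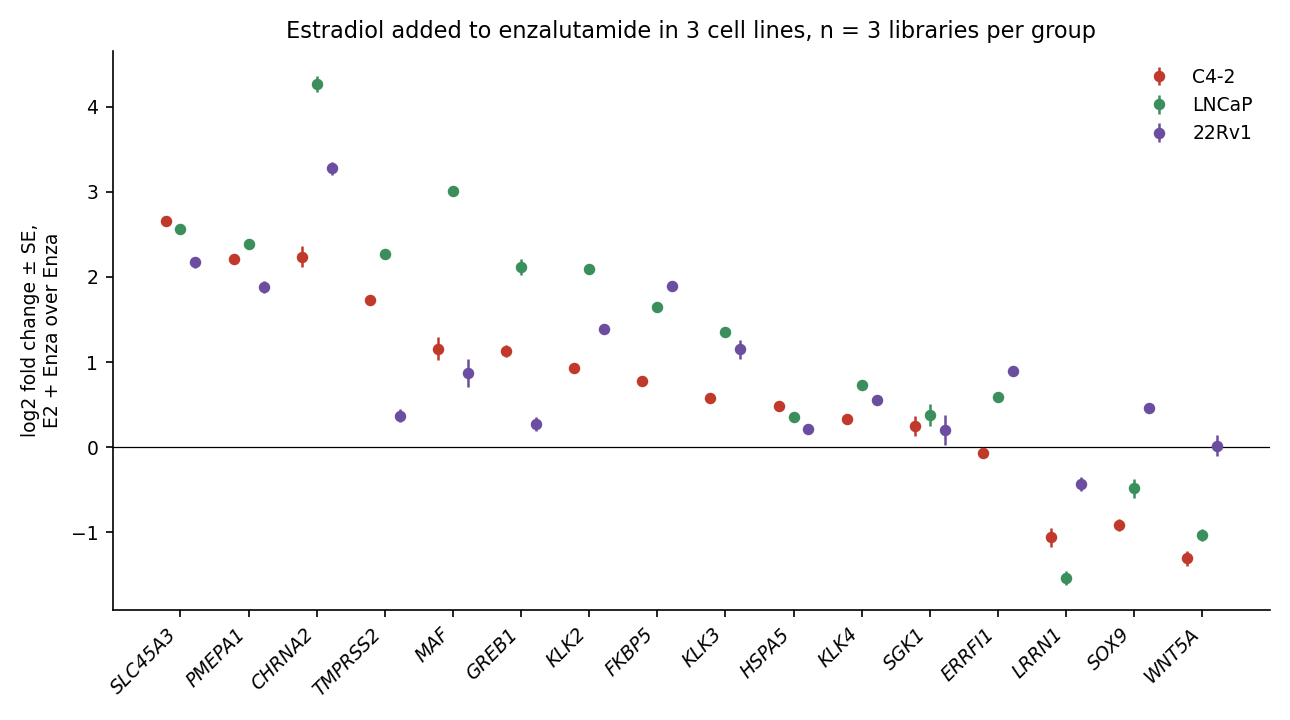
Log2 fold change with its standard error, E2 + Enza over Enza, of 16 genes in C4-2, LNCaP and 22Rv1 (3 libraries per group). SLC45A3 and PMEPA1 rose in each of the 3 lines, least in 22Rv1, and CHRNA2, MAF and KLK2 are highest in LNCaP. TMPRSS2 (0.37) and GREB1 (0.28) rose least in 22Rv1, and WNT5A and SOX9 are below 0 in C4-2 and LNCaP.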

How the data were processed

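Total RNA was extracted with TRIzol and made into stranded libraries with the TruSeq Stranded Total RNA kit, per the labels' protocols. Reads were trimmed with Trimmomatic, counted with featureCounts and scaled with edgeR on hg38, per the submitters' processing notes; no source used here gives their versions or the strand setting of the counting. The deposited values are a score, the log2 of CPM with 0.5 reads added, divided by a library's own constant, which brings every column total to 1000000. From these the whole reads were recovered: 100% of values lay within 0.01 of a whole number (largest distance 6.9e-08). CPM was taken from those reads and the authors' effective library sizes. Of 19225 features, 18917 matched RefSeq GRCh38.p14 by identifier and 306 have no symbol.

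Because the deposited unit is not a count, the test was limma 3.58.1 in R 4.3.3 (trend, two-sided) on log2(CPM + 0.5), so that folds of low genes are understated. A gene entered if 3 or more of the C4-2 libraries reached 1 CPM; 5198 were dropped. The 18 C4-2 libraries shared 1 estimate of the spread (6 group means, 12 residual degrees of freedom), and the line differences came from all 54 (36). Benjamini-Hochberg adjusted p under 0.05 over all genes tested was called. Confidence intervals are 95%. Where libraries of a group are not separate cultures, p-values measure only the spread between these libraries; replicates differed by more than counting noise (chi-square per gene 5.51 to 17.1). With 3 against 3 libraries an exact permutation test of 1 gene cannot go below p = 0.1, so none was used. The procedure was tested on simulated data.

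Named genes were the 15 largest called changes in each direction with all 3 libraries of a group on 1 side and a mean of at least 1 CPM over the 6, the 5 largest called differences in each direction, a fixed set of androgen, estrogen and stress genes, and up to 4 members of each list by smallest p; further list members and genes in counts of 5 or fewer were chosen after their values were seen. The members and lists were chosen with earlier results of these data known. Some genes are not reported here. Alternatives were other pseudocounts, filters and scalings, voom weights, a replicate block, other sets of libraries, and leaving out each library.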

Additional observations from a re-analysis of the deposited data

Results flagged for a closer look

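Each result here is a difference between the effects of E2 in 2 settings, tested as such by limma with adjustment over all genes, and no explanation of any of them was tested. The first setting was the presence of Enza in C4-2, where 210 genes differed. The effect of E2 was more positive with Enza for STYXL2 (1.43 on the log2 scale), CYP1B1 (1.31), SLC45A3 (1.15), C1orf116 (1.14), PMEPA1 (0.99), TMPRSS2 (0.96), KLK3 (0.31), KLK2 (0.26) and HSPA5 (0.24). It was more negative with Enza for SGK1 (-1.38), RUNX1 (-1.11), PCOLCE (-0.95), TTN (-0.93), NEDD9 (-0.80), SOX9 (-0.73), FKBP5 (-0.64) and ERRFI1 (-0.35). SOX9 and NEDD9 fell with Enza and were not called without it, and FKBP5 rose less with Enza than without it. SGK1, RUNX1 and TTN rose without Enza and were not called with it. The differences for KLK3, KLK2, HSPA5, TTN and PCOLCE lost their call without vehicle library 1 and E2 library 3. Those for KLK2, HSPA5 and PCOLCE also lost it when some single libraries were left out.

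The second setting was the line. Between C4-2 and LNCaP 840 genes differed. The effect was more positive in C4-2 for OPRK1 (2.42), GAGE12C (2.03), SI (1.81), TLL1 (1.61), CBLN2 (1.51) and PLD1 (1.16). It was more negative for SLC38A4 (-3.54), PDE3A (-2.27), CHRNA2 (-2.03), CCDC141 (-2.00), HPGD (-1.91), MAF (-1.85), KLK2 (-1.16), GREB1 (-0.99), FKBP5 (-0.87), KLK3 (-0.77), ERRFI1 (-0.66), TMPRSS2 (-0.53), SOX9 (-0.43) and KLK4 (-0.40). With a pseudocount of 2 the PLD1 difference was 0.29 and not called (adjusted p = 0.103), and with one of 0.1 that of CBLN2 was 1.13 and not called (adjusted p = 0.11). The GAGE12C and SOX9 calls were lost when some single libraries were left out. With voom weights OPRK1, SI, TLL1, CBLN2, CCDC141 and SOX9 lost their call. OPRK1, SI, TLL1, CBLN2, SLC38A4, PDE3A and HPGD were under 0.5 CPM on average in both C4-2 groups.

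Between C4-2 and 22Rv1 924 genes differed. The effect was more positive in C4-2 for CCDC141 (1.91), TGM2 (1.65), ZNF385B (1.42), PLK2 (1.41), TMPRSS2 (1.36), SLC17A4 (1.36), GREB1 (0.85), SLC45A3 (0.48), PMEPA1 (0.33) and HSPA5 (0.27). It was more negative for ADRA2A (-2.57), F3 (-1.85), SLC38A4 (-1.78), TMCC3 (-1.73), KCNMA1 (-1.57), SOX9 (-1.37), WNT5A (-1.32), FKBP5 (-1.11), CHRNA2 (-1.04), PGR (-1.03), ERRFI1 (-0.96), ACKR3 (-0.71), KLK3 (-0.57), KLK2 (-0.46) and KLK4 (-0.22). CCDC141 and TGM2 were under 0.2 CPM on average in both 22Rv1 groups, and F3 and SLC17A4 under 0.1 CPM in both C4-2 groups. The KLK4 call was lost when some single libraries were left out. With voom weights CCDC141, TGM2, SLC17A4, SLC38A4, PGR and ACKR3 lost their call. With a pseudocount of 0.1 TGM2, SLC38A4, PGR and ACKR3 lost theirs.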

How the results depend on the processing

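Of 5514 alternative values for 289 single-gene results, 5192 kept the side of the threshold and direction, except that 36 of these, in 13 results, were uncalled values of changed sign; 251 lost the call, 70 gained it and 1 reversed: the CCDC141 difference with against without Enza was 0.08, and -0.54 with a pseudocount of 2 (adjusted p = 0.0212, within a range of 0.0212 to 0.966 over its alternatives); it was 1.32 with a pseudocount of 0.1 and 2.75 with voom weights. The 1035 genes of E2 + Enza over Enza became 717 to 947 without 1 library, of which 702 to 819 were shared, with 424 to 609 higher and 293 to 357 lower. Scaling to total reads gave 653 lower genes. The Enza interaction (210) was called for 363 genes in the fit of all 54 libraries, 96 without vehicle library 1 and E2 library 3, and 106 to 332 without 1 library. The comparison with vehicle (11) gave 22 genes with TMM scaling, 20 with total reads, 35 with cyclic loess, 27 with all 54 libraries and 3 to 34 without 1 library; with total reads 70% of them were higher, against 54.5%. Differences from LNCaP (840) ranged over 604 to 890 and from 22Rv1 (924) over 759 to 993 without 1 library. The cause of these shifts was not tested. The deviations of same-numbered libraries correlated at -0.0998, 0.253 and 0.0344, and those of differently numbered ones at -0.301 to 0.255. With 3 libraries per group, such values cannot show whether a number marks a shared culture or batch. With the replicate number as a block the counts were 1006 (597 higher, 409 lower), 177, 845, 928 and 12. Among lists, the androgen-induced count stayed between 32 and 37 of 47. At this depth a change of a few reads decides genes below about 0.1 CPM.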
